A study of Homo sapiens with 8 samples.

Results

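The 34 genes described here encode aminoacyl-tRNA synthetases, the enzymes that join each amino acid to its transfer RNA (tRNA). They were picked by gene symbol: 19 cytosolic enzymes (symbols ending in 1, with FARSA and FARSB) and 15 mitochondrial enzymes (symbols ending in 2), each found as 1 row among the 80311 gene rows of the deposited table. The values were counts from total RNA sequencing of U2OS, a human osteosarcoma line, with 2 libraries in each of 4 groups. AsiSI siMePCE and AsiSI siNC came from a U2OS derivative named AiD DIvA AsiSI-ER in the labels, and Flp-In siMePCE and Flp-In siNC from U2OS-Flp-In-TREx. Both siMePCE groups received an siRNA against MEPCE, which encodes the enzyme that caps 7SK RNA, and both siNC groups a control siRNA. All groups were transfected at 0 h and again at 48 h and were lysed at 96 h. Both AsiSI groups were also given 4-OHT (4-hydroxytamoxifen) at 300 nM for 4 h from 92 h, which in such lines sends the AsiSI restriction enzyme to the nucleus to cut DNA. No 4-OHT is stated for Flp-In cells, so the line and 4-OHT cannot be told apart. Whether each line is a single clone is not given in the sources used here, and the labels do not say that the paired libraries of a group came from separate cultures, so the p-values measure the spread between these libraries, which may be technical.

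Human cells keep separate sets of synthetases for translation in the cytosol and in mitochondria, and nuclear genes encode both sets. GARS1 and KARS1 are exceptions, since each supplies glycyl- or lysyl-tRNA synthetase to both places, and they are counted here as cytosolic. EPRS1 is a fused enzyme that charges tRNA with glutamate and with proline. FARSA and FARSB are the subunits of cytosolic phenylalanyl-tRNA synthetase. EPRS1, IARS1, LARS1, MARS1, QARS1, RARS1 and KARS1 sit with scaffold proteins in the multi-tRNA synthetase complex. Many cytosolic synthetase genes are known targets of ATF4, the transcription factor of the amino acid response, which binds elements with a TGATGNAA core together with C/EBP proteins.

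Each library held 41431776 to 53695626 counts, and a synthetase gene held between 179 counts (SARS2) and 18194 counts (IARS1) in a single library, so all 34 passed the filter on low counts. MEPCE, the targeted gene, had 3.65 and 2.3 CPM in AsiSI siMePCE, against 29.3 and 29.3 CPM in AsiSI siNC, and 5.35 and 4.84 CPM in Flp-In siMePCE, against 39.9 and 40.1 CPM in Flp-In siNC. CPM here means the counts of a gene scaled to a common library size with TMM normalization, over the whole gene including introns, so CPM values of different genes are not compared. Rows of the mitochondrial genome took 8.24% to 10.55% of counts in the 4 siMePCE libraries and 5.23% to 5.91% in the 4 siNC libraries. The mesenchymal and bone-lineage markers VIM, SPARC, RUNX2 and COL1A1 were present in every library, whereas COL1A2 stayed at or under 0.81 CPM and ALPL at or under 1.29 CPM. Of markers of other lineages, the epithelial EPCAM and CDH1 reached 6.64 and 6.59 CPM and the blood marker PTPRC 7.50 CPM at most, and CD3E and PECAM1 did not pass the filter.

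The 30-base windows printed next carry the TGATGNAA core (in capitals) and are shown because the core lies in 2 of the 3 members whose response differed between the lines (IARS1 and AARS1). They come from RefSeq promoters of the build GRCh38.p14, which run from 250 bases before to 50 bases after each gene's start. Of the 34 members, 29 had such a promoter, and AARS2, LARS1, VARS1, VARS2 and YARS1 had none. Each sequence is written on the strand on which the core reads forward, with that strand after its position.
AARS1, chr16:70289675-70289704 (+): tctaacttggcTGATGCAActgcgagaaaa
CARS1, chr11:3057407-3057436 (+): ttcctagaatcTGATGCAAccgccgccccg
GARS1, chr7:30594834-30594863 (-): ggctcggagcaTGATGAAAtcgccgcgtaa
IARS1, chr9:92293692-92293721 (+): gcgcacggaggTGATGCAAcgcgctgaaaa
MARS1, chr12:57488053-57488082 (-): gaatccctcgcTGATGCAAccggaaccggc
NARS1, chr18:57621804-57621833 (-): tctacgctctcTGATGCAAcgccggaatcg
TARS1, chr5:33440956-33440985 (-): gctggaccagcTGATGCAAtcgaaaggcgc
YARS2, chr12:32756076-32756105 (-): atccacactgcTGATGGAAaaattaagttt
A match on either strand was found for 7 of 16 cytosolic genes and 1 of 13 mitochondrial genes, against 4.457% of all 27305 genes with a promoter in the same table. Of the 8 matches, 6 read TGATGCAA. The E-box CACGTG, the site bound by MYC family proteins, was found for 4 of the 29 members (CARS2, EARS2, IARS1 and MARS2) and for 8.775% of all genes. The NRF1 motif GCGCANGCG was found for 6 (FARSB, IARS2, MARS2, PARS2, SARS1 and TARS1) and for 9.024% of all genes. IARS1 held both TGATGNAA and CACGTG, at separate places.

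After siMePCE, synthetase genes fell more often than they rose in AsiSI cells, while in Flp-In cells 7 rose and 9 fell, or 13 and 7 with TMM scaling taken from protein-coding rows. In AsiSI, 3 members rose and 20 fell, and 11 were not called, where a call means an edgeR quasi-likelihood test with a Benjamini-Hochberg adjusted p under 0.05 over all 43321 genes tested. Over all genes, 38.1% were called in AsiSI, 16.8% higher and 21.3% lower, and of protein-coding genes 16.9% were higher and 35% lower. In Flp-In, 7 members rose, 9 fell and 18 were not called, beside 40.8% of all genes called, 18.1% higher and 22.7% lower, and 20.4% higher and 34.2% lower among coding genes. The median log2 fold change of the members was -0.36 in AsiSI and 0.00 in Flp-In, beside -0.21 and -0.13 for the 12108 coding genes with a mean of at least 5 CPM. With TMM scaling taken from protein-coding rows, which shifted the median of all genes by 0.157 in AsiSI and 0.105 in Flp-In, the members called were 5 higher and 16 lower in AsiSI, and 13 higher and 7 lower in Flp-In. With DESeq2 size factors the Flp-In counts were 11 higher and 9 lower. Leaving out either Flp-In siNC library, or replicate 1 of Flp-In siMePCE, left 4 higher members in Flp-In. Averaged over the lines, 5 members rose and 17 fell (12 and 13 with TMM from coding rows), beside 52.5% of all genes called, 25.2% higher and 27.2% lower, and 24.5% higher and 40.7% lower among coding genes. Across the lines, 3 members rose in both (WARS1, NARS2 and RARS2), 9 fell in both, and 0 were called in opposite directions. The NARS2 call in AsiSI sat at the threshold. Shares of all genes called in both lines are not given here, so no more is read from these joint counts. In bulk libraries, fewer cells of a kind and less RNA per cell cannot be told apart.

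**Figure D1:**
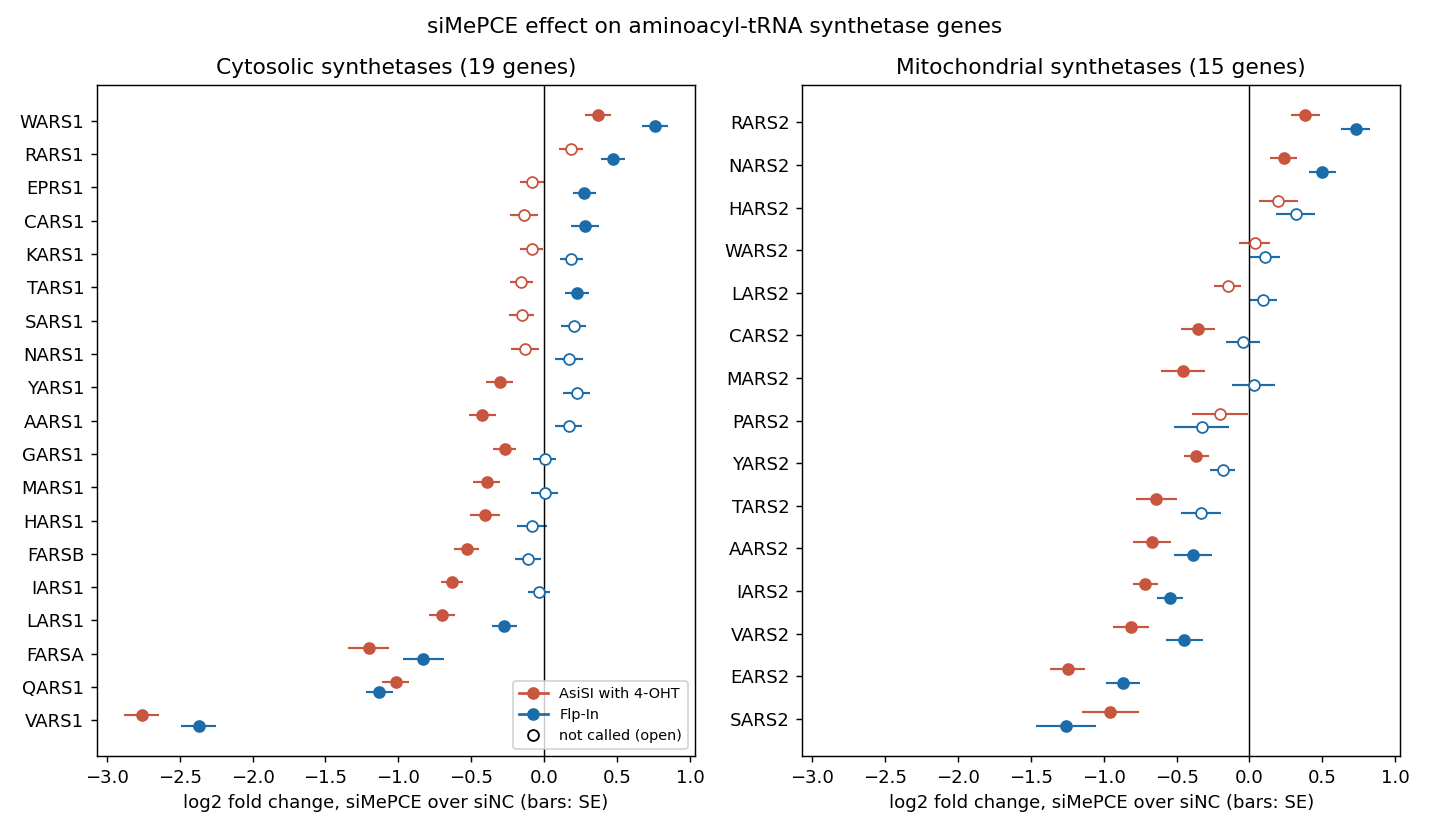
Log2 fold change of each synthetase gene after siMePCE relative to siNC (x axis, bars are SE), with cytosolic genes at left and mitochondrial genes at right, AsiSI above Flp-In for each gene. Filled points were called at an adjusted p under 0.05 (edgeR). VARS1 lies farthest to the left in both lines, at -2.76 in AsiSI and -2.37 in Flp-In.

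Of the 19 cytosolic genes, VARS1, QARS1, FARSA and LARS1 fell in both lines. VARS1 (ENSG00000204394, chromosome 6, 31745295 to 31763529, minus strand, hg19), which encodes valyl-tRNA synthetase, had 24.3 and 18.6 CPM in AsiSI siMePCE, against 131 and 159 CPM in AsiSI siNC. It had 19.2 and 19.8 CPM in Flp-In siMePCE, against 101 and 101 CPM in Flp-In siNC. All 4 siMePCE libraries thus lay far below all 4 siNC libraries, and VARS1 fell 6.77-fold in AsiSI (-2.76 on the log2 scale with an SE of 0.121, adjusted p by edgeR = 1.05e-12) and 5.17-fold in Flp-In (-2.37, SE 0.119, adjusted p = 6.41e-12). Its row overlapped 1 other row, which held 0.001 of its counts. QARS1, glutaminyl-tRNA synthetase and a member of the multi-synthetase complex, had 39.1 and 40.3 CPM in AsiSI siMePCE, against 78.6 and 82.2 CPM in AsiSI siNC, and 49.6 and 44.4 CPM in Flp-In siMePCE, against 102 and 104 CPM in Flp-In siNC. Its level under siMePCE was below that under siNC in every library, 2.03-fold in AsiSI (SE 0.0925 on the log2 scale, adjusted p = 2.36e-08) and 2.19-fold in Flp-In (SE 0.0921, adjusted p = 4.92e-09).

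Of the phenylalanyl-tRNA synthetase subunits, FARSA fell in both lines and FARSB in AsiSI. FARSA, the catalytic subunit, had 8.9 and 9.32 CPM in AsiSI siMePCE, against 19.5 and 22.5 CPM in AsiSI siNC, and 12.7 and 10.4 CPM in Flp-In siMePCE, against 19.05 and 22.0 CPM in Flp-In siNC. The groups did not overlap in either line, and FARSA fell 2.3-fold in AsiSI (SE 0.142 on the log2 scale, adjusted p by edgeR = 8.4e-07) and 1.78-fold in Flp-In (SE 0.14, adjusted p = 6.55e-05). FARSB, the other subunit, fell in AsiSI (log2 fold change -0.53) and had a log2 fold change of -0.11 in Flp-In, which was not called. LARS1, leucyl-tRNA synthetase, had 98.5 and 97.4 CPM in AsiSI siMePCE, against 155 and 164 CPM in AsiSI siNC, and 109 and 96.5 CPM in Flp-In siMePCE, against 123 and 127 CPM in Flp-In siNC. LARS1 fell by 0.70 on the log2 scale in AsiSI and by 0.27 in Flp-In (adjusted p by edgeR = 1.49e-06 and 0.0144), and the Flp-In call was lost without replicate 2 of either Flp-In group and with TMM from coding rows, at log2 fold changes of -0.26 to -0.17.

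WARS1, tryptophanyl-tRNA synthetase, was the 1 cytosolic gene that rose in both lines. It had 91.6 and 96.1 CPM in AsiSI siMePCE, against 73.3 and 72.3 CPM in AsiSI siNC, and 96.0 and 86.5 CPM in Flp-In siMePCE, against 54.1 and 53.8 CPM in Flp-In siNC. The siMePCE libraries of both lines lay close together, while the siNC libraries were higher in AsiSI than in Flp-In. The rise was 1.29-fold in AsiSI (0.37 on the log2 scale with an SE of 0.0883, adjusted p by edgeR = 0.0023) and 1.69-fold in Flp-In (0.76, SE 0.0892, adjusted p = 7.73e-07), a difference of -0.39 that was not called (adjusted p = 0.0854). A row on the opposite strand, ENSG00000258666, covered 47.13% of the WARS1 span and held 0.644 times its counts, so reads in that stretch cannot be assigned to either.

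RARS1, EPRS1, CARS1 and TARS1 rose in Flp-In and were not called in AsiSI. RARS1, arginyl-tRNA synthetase, had 100.2 and 97.2 CPM in AsiSI siMePCE, against 85.1 and 88.7 CPM in AsiSI siNC, and 108 and 105 CPM in Flp-In siMePCE, against 78.5 and 74.9 CPM in Flp-In siNC. Its siMePCE libraries were above its siNC libraries in both lines, with a log2 fold change of 0.18 in AsiSI (SE 0.0843, adjusted p by edgeR = 0.0921) and 0.47 in Flp-In (SE 0.0846, adjusted p = 0.000128). EPRS1, CARS1 and TARS1 had log2 fold changes of -0.08, -0.14 and -0.16 in AsiSI and rose by 0.28, 0.28 and 0.23 in Flp-In. These last 3 calls were lost without either Flp-In siNC library or without replicate 1 of Flp-In siMePCE (log2 fold changes of 0.13 to 0.31), that of CARS1 also without replicate 2 of Flp-In siMePCE, and those of CARS1 and TARS1 with no filter on low counts. The difference between the lines was not called for any of the 4. GARS1, HARS1 and MARS1 fell in AsiSI, by 0.27, 0.41 and 0.39, and had log2 fold changes of 0.00, -0.08 and 0.00 in Flp-In, which were not called. The GARS1 call in AsiSI was lost without replicate 1 of AsiSI siMePCE or with TMM from coding rows (-0.22 to -0.11). KARS1, NARS1 and SARS1, for lysine, asparagine and serine, were called in neither line, with -0.09, -0.13 and -0.16 in AsiSI and 0.18, 0.17 and 0.20 in Flp-In.

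**Figure D2:**
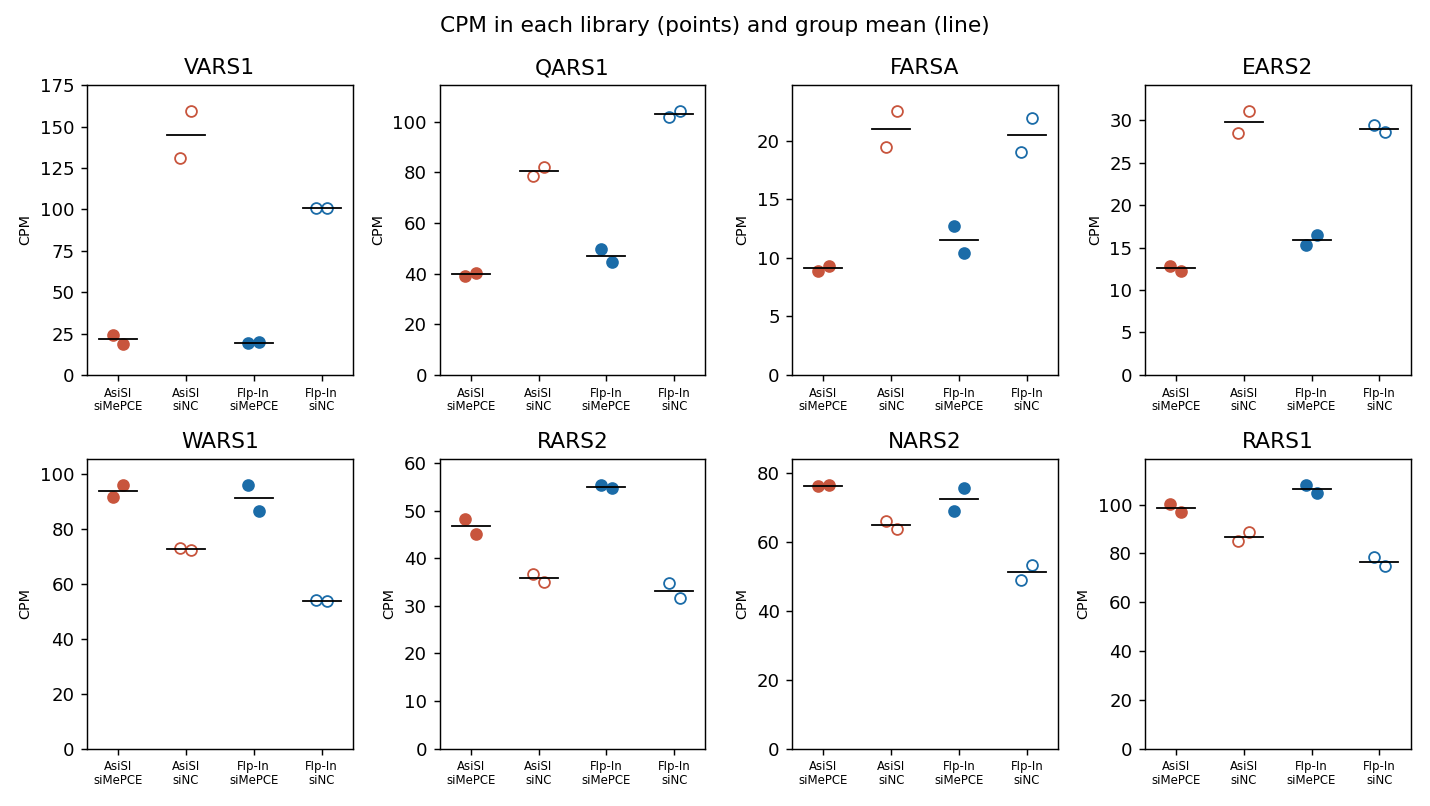
CPM (y axis, from 0) in each library for 8 synthetase genes, by group. Points are libraries (filled for siMePCE, open for siNC) and lines are group means, and in both lines the siMePCE points lie below the siNC points for VARS1, QARS1, FARSA and EARS2 and above them for WARS1, RARS2, NARS2 and RARS1.

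Among the 15 mitochondrial genes, EARS2, SARS2, IARS2, VARS2 and AARS2 fell in both lines. EARS2, mitochondrial glutamyl-tRNA synthetase, had 12.9 and 12.2 CPM in AsiSI siMePCE, against 28.5 and 31.1 CPM in AsiSI siNC, and 15.3 and 16.5 CPM in Flp-In siMePCE, against 29.5 and 28.6 CPM in Flp-In siNC. It fell 2.37-fold in AsiSI (SE 0.118 on the log2 scale, adjusted p by edgeR = 4.15e-08) and 1.82-fold in Flp-In (SE 0.116, adjusted p = 4.33e-06), with no overlap between groups. Its row shared 11 bases with UBFD1, which held 2.308 times its counts, and 1242 bases with GGA2, at 1.294 times. SARS2, mitochondrial seryl-tRNA synthetase, had 8.7 and 5.0 CPM in AsiSI siMePCE, against 13.9 and 12.7 CPM in AsiSI siNC, and 3.85 and 3.7 CPM in Flp-In siMePCE, against 9.58 and 8.47 CPM in Flp-In siNC. It fell 1.94-fold in AsiSI (SE 0.195, adjusted p = 0.000521) and 2.39-fold in Flp-In (SE 0.205, adjusted p = 4.54e-05), and its AsiSI siMePCE libraries stood farther apart than those of the other groups. The row ENSG00000269547 on the same strand covered 99.11% of SARS2 and held 3.461 times its counts, so a read there can belong to either.

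IARS2, mitochondrial isoleucyl-tRNA synthetase, fell with almost no reads in common with other rows (the highest ratio was 0.003). It had 66.0 and 71.2 CPM in AsiSI siMePCE, against 113 and 112 CPM in AsiSI siNC, and 79.1 and 74.8 CPM in Flp-In siMePCE, against 117 and 107 CPM in Flp-In siNC. This was 1.64-fold lower in AsiSI and 1.46-fold lower in Flp-In (adjusted p by edgeR = 1.5e-06 and 3.91e-05). VARS2 and AARS2, the mitochondrial valyl- and alanyl-tRNA synthetases, fell by 0.81 and 0.67 on the log2 scale in AsiSI (adjusted p = 2.3e-05 and 0.000283) and by 0.45 and 0.39 in Flp-In (adjusted p = 0.00757 and 0.0221). Both Flp-In calls were lost without replicate 2 of either Flp-In group, and that of AARS2 also without replicate 1 of Flp-In siNC and with TMM from coding rows. The log2 fold change was then -0.42 to -0.41 for VARS2 and -0.42 to -0.28 for AARS2. Rows covering the whole span held 1.476 times the counts of VARS2 and 1.214 times those of AARS2. CARS2, MARS2, TARS2 and YARS2 fell in AsiSI, by 0.35, 0.46, 0.64 and 0.36. Their log2 fold changes in Flp-In were -0.05, 0.03, -0.33 and -0.18, which were not called. A same-strand row, ENSG00000222017, covered all of MARS2 and held 1.687 times its counts. Rows on the opposite strand covered 33.39% of TARS2 (ENSG00000307101, 1.304 times its counts) and 63.93% of YARS2 (DNM1L, 1.312 times). Reads in these stretches cannot be assigned to either row. For CARS2 the highest such ratio was 0.322. Mean CPM of DNM1L was lower after siMePCE too, 129 against 153 in AsiSI and 174 against 199 in Flp-In. Whether the YARS2 call in AsiSI rests on DNM1L reads was not tested. The AsiSI calls of CARS2 and MARS2 were lost without replicate 1 of AsiSI siNC, without replicate 2 of AsiSI siMePCE and with TMM from coding rows (-0.35 to -0.20 for CARS2 and -0.41 to -0.30 for MARS2).

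RARS2 and NARS2 rose in both lines. RARS2, mitochondrial arginyl-tRNA synthetase, whose row overlapped no other, had 48.2 and 45.2 CPM in AsiSI siMePCE, against 36.6 and 35.0 CPM in AsiSI siNC, and 55.4 and 54.7 CPM in Flp-In siMePCE, against 34.8 and 31.6 CPM in Flp-In siNC. The groups were apart in both lines, and the rise was 1.3-fold in AsiSI (SE 0.0987 on the log2 scale, adjusted p by edgeR = 0.00395) and 1.66-fold in Flp-In (SE 0.0992, adjusted p = 5.08e-06). NARS2, mitochondrial asparaginyl-tRNA synthetase, had 76.1 and 76.5 CPM in AsiSI siMePCE, against 66.2 and 63.7 CPM in AsiSI siNC, and 69.1 and 75.7 CPM in Flp-In siMePCE, against 49.1 and 53.3 CPM in Flp-In siNC. It rose 1.18-fold in AsiSI (adjusted p = 0.0494) and 1.41-fold in Flp-In (adjusted p = 0.000176). Opposite-strand rows covered 6.04% of the NARS2 span (ENSG00000288853, 0.475 times its counts) and 18.19% (ENSG00000255084, 0.138 times). Reads there cannot be assigned to NARS2 or to those rows. The AsiSI call of NARS2 sat at the threshold and was lost in 10 of 17 other settings, the omission of each of the 8 libraries among them, at log2 fold changes of 0.21 to 0.26. HARS2, LARS2, PARS2 and WARS2 were called in neither line, with log2 fold changes of 0.20, -0.15, -0.20 and 0.04 in AsiSI and 0.32, 0.09, -0.33 and 0.11 in Flp-In.

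The siMePCE effect itself was compared between the lines as AsiSI minus Flp-In. It was more negative in AsiSI for 31 of 34 members, with a median difference of -0.33 on the log2 scale, whereas the median over coding genes with at least 5 CPM was -0.09, and 62.2% of those were negative. The test of the difference called 3 members lower in AsiSI (IARS1, AARS1 and YARS1) and 0 higher, beside 4.17% of all genes called, 1.66% lower and 2.51% higher, and 3.11% lower and 3.1% higher among coding genes. At an unadjusted p under 0.05 there were 20 lower members and 0 higher, beside 8.62% of all genes lower and 9.12% higher, and DESeq2 called 7 lower and 0 higher. Without replicate 1 of Flp-In siNC or of Flp-In siMePCE 1 member (IARS1) was called, and without replicate 2 of Flp-In siMePCE 5 were.

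IARS1 (ENSG00000196305, chromosome 9, 94972489 to 95056136, minus strand, hg19), cytosolic isoleucyl-tRNA synthetase, had 230.3 and 217 CPM in AsiSI siMePCE, against 348 and 346 CPM in AsiSI siNC. In Flp-In siMePCE it had 313 and 293 CPM, against 314 and 307 CPM in Flp-In siNC. The groups were apart in AsiSI and overlapped in Flp-In, and the difference of the effects was -0.59 (SE 0.107, adjusted p by edgeR = 0.00229), a call that held in all 16 other settings. AARS1, alanyl-tRNA synthetase, had 73.2 and 68.8 CPM in AsiSI siMePCE, against 91.9 and 98.7 CPM in AsiSI siNC, and 122 and 104 CPM in Flp-In siMePCE, against 98.0 and 103 CPM in Flp-In siNC. AARS1 fell in AsiSI (log2 fold change -0.42) and was not called in Flp-In (0.17), with a difference of -0.59 (SE 0.132, adjusted p = 0.0126). YARS1, tyrosyl-tRNA synthetase, had 74.0 and 82.9 CPM in AsiSI siMePCE, against 94.1 and 99.9 CPM in AsiSI siNC, and 91.9 and 85.3 CPM in Flp-In siMePCE, against 72.6 and 79.2 CPM in Flp-In siNC. Its siMePCE libraries lay below siNC in AsiSI and above siNC in Flp-In, and the difference was -0.53 (SE 0.13, adjusted p = 0.0228). The difference of AARS1 was not called without replicate 1 of either Flp-In group (-0.55 to -0.47). That of YARS1 was lost without any 1 of these libraries, replicate 1 of AsiSI siMePCE or replicate 2 of AsiSI siNC (-0.48 to -0.46). YARS1 itself fell in AsiSI (log2 fold change -0.31, adjusted p by edgeR = 0.0119), a call lost without replicate 1 of AsiSI siMePCE or replicate 2 of AsiSI siNC and with TMM from coding rows (-0.26 to -0.15), and was not called in Flp-In (0.22). S100PBP, on the opposite strand, held 0.475 times the counts of YARS1. Mean CPM of S100PBP was lower after siMePCE in both lines, 28.9 against 45.5 in AsiSI and 33.6 against 55.4 in Flp-In. What part its reads had in the YARS1 values was not tested.

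Genes of the amino acid response were set beside these members. ATF4 rose in both lines, with 149.8 and 167 CPM in AsiSI siMePCE, against 114 and 123 CPM in AsiSI siNC, and 140.2 and 142 CPM in Flp-In siMePCE, against 93.2 and 99.6 CPM in Flp-In siNC (log2 fold changes 0.42 and 0.55, adjusted p by edgeR = 0.00053 and 3.28e-05). ASNS, asparagine synthetase and a well-known ATF4 target, had 30.6 and 35.8 CPM in AsiSI siMePCE, against 36.0 and 32.0 CPM in AsiSI siNC, and 61.0 and 60.3 CPM in Flp-In siMePCE, against 33.0 and 29.6 CPM in Flp-In siNC. ASNS thus stood apart in Flp-In siMePCE alone among the 4 groups, and its difference was -0.99 (SE 0.154, adjusted p by edgeR = 0.00065). MYC, a transcription factor that acts on many translation genes, had 138 and 134 CPM in AsiSI siMePCE, against 172 and 189 CPM in AsiSI siNC, and 224 and 205 CPM in Flp-In siMePCE, against 95.7 and 97.9 CPM in Flp-In siNC, a difference of -1.56 (SE 0.118, adjusted p = 4.27e-07). Of 31 genes of amino acid synthesis, transport and the ATF4 response, 7 rose and 13 fell in AsiSI, and 13 rose and 10 fell in Flp-In. By the test of the difference, 4 had a lower effect in AsiSI and 0 a higher one. Coding genes were 16.9% higher and 35% lower in AsiSI, and 20.4% higher and 34.2% lower in Flp-In. For the difference, 3.11% of coding genes were lower and 3.1% higher. These shares stand beside all counts of called genes in this paragraph. ATF3 rose by 1.99 and 2.48 in AsiSI and Flp-In, while PYCR1, an enzyme of proline synthesis, had -1.53 and -1.52, and the amino acid transporters SLC7A1 and SLC7A5 had -1.17 and -0.83, and -0.90 and -0.42. The 7 cytosolic genes with a TGATGNAA core had a median log2 fold change of -0.27 in AsiSI (4 fell, 0 rose) and 0.17 in Flp-In (2 rose, 0 fell), and the 9 cytosolic genes with a promoter but no such core had -0.16 (4 fell, 1 rose) and 0.18 (3 rose, 2 fell).

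**Figure D3:**
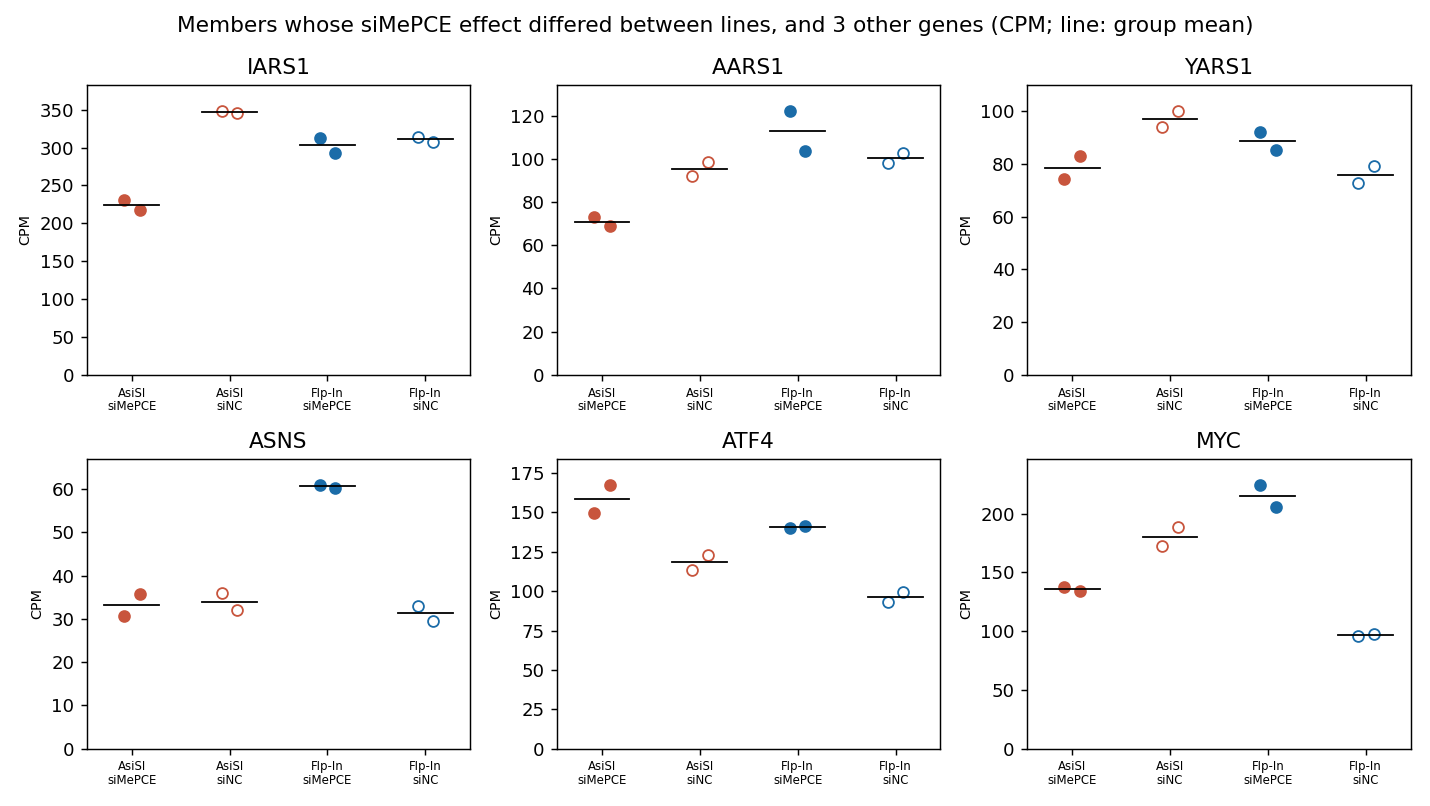
CPM (y axis, from 0) per library for IARS1, AARS1 and YARS1, whose siMePCE effect differed between the lines, and for ASNS, ATF4 and MYC. Points are libraries (filled for siMePCE, open for siNC) and lines are group means, and ASNS stands near 60 CPM in Flp-In siMePCE and between 29.6 and 36.0 CPM in the other groups.

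The cytosolic and mitochondrial classes were then set side by side, without a test over the lists. The counts stand beside shares over coding genes of 16.9% higher and 35% lower in AsiSI, and 20.4% higher and 34.2% lower in Flp-In. In AsiSI, 1 cytosolic gene rose and 11 of 19 fell (median -0.31), and 2 mitochondrial genes rose and 9 of 15 fell (median -0.36). In Flp-In, 5 cytosolic genes rose and 4 fell (median 0.17), and 2 mitochondrial genes rose and 5 fell (median -0.18). The cytosolic minus mitochondrial median was 0.06 in AsiSI, where the spread between libraries gave an SD of 0.139, and 0.35 in Flp-In, with an SD of 0.0594. These SDs leave out the spread among genes. In Flp-In the log2 fold changes ran from -2.37 to 0.76 over cytosolic genes and from -1.26 to 0.73 over mitochondrial genes. Among the 7 members of the multi-synthetase complex 0 rose (1, RARS1, at an unadjusted p under 0.05) and 4 fell in AsiSI, and 2 rose and 2 fell in Flp-In. The 12 other cytosolic genes had 1 higher and 7 lower in AsiSI, and 3 higher and 2 lower in Flp-In. By structural class of the catalytic domain, 2 of 18 class I genes rose and 12 fell in AsiSI, against 4 and 6 in Flp-In, and 1 of 15 class II genes rose and 8 fell in AsiSI, against 2 and 3 in Flp-In. EPRS1, which holds a domain of each class, is in neither count. Every one of these groups held genes that moved in both directions in at least 1 line.

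The summed CPM of the 19 cytosolic genes was 1878 and 1920 in AsiSI siMePCE, against 2416 and 2503 in AsiSI siNC. In Flp-In the sums overlapped, at 2167 and 1999 in siMePCE libraries and 2049 and 2071 in siNC libraries. The 15 mitochondrial genes summed to 509 and 476 CPM in AsiSI siMePCE, against 609 and 598 CPM in AsiSI siNC, and to 589 and 567 CPM in Flp-In siMePCE, against 617 and 600.5 CPM in Flp-In siNC. The groups were thus apart for both classes in AsiSI and for the mitochondrial class in Flp-In. The mitochondrial sums in Flp-In lay close together, however. TMM from coding rows shifted the median of all genes there by 0.105 on the log2 scale, and sums under that scaling are not given here. The Flp-In gap is therefore not read as a change. All these sums weigh genes by their CPM, introns and overlapping reads included. In AsiSI siNC the largest parts of the mitochondrial sum came from YARS2 and IARS2, at means of 121 and 113 CPM.

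For 15 amino acids, 1 cytosolic and 1 mitochondrial gene were both among the members. Both fell in AsiSI for alanine, isoleucine, methionine, valine and tyrosine (5 pairs), and 0 pairs were called in opposite directions there. With 11 of 19 cytosolic and 9 of 15 mitochondrial genes lower in AsiSI, such pairs also arise without any link between their genes. Whether pairs moved together more often than that was not tested. Overlapping rows held many reads in the spans of AARS2, MARS2, VARS2 and YARS2, as given above. In Flp-In, both arginine genes rose, both valine genes fell, and the 1 pair with opposite calls was that of glutamate. EPRS1 rose in Flp-In, with 174 and 160.0 CPM in Flp-In siMePCE, against 139 and 137 CPM in Flp-In siNC, whereas EARS2 fell there as given above. The cytosolic gene had the higher log2 fold change in 10 of the 15 pairs in AsiSI and in 9 in Flp-In. EPRS1 stands in 2 of these pairs, with EARS2 and with PARS2, so the pairs are not independent.

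The histidine genes lie head to head, and the bases between their RefSeq starts are shown because these genes start on either side of them and were called in opposite directions. The stretch (GRCh38.p14, chr5:140691371-140691454, plus strand, 84 bases, 59.5% GC) runs from the base next to the HARS1 start to the base before the HARS2 start.
HARS1-HARS2: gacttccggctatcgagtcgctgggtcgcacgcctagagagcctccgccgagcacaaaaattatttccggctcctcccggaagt
HARS1 had 25.4 and 25.0 CPM in AsiSI siMePCE, against 31.7 and 35.2 CPM in AsiSI siNC, and 36.0 and 35.0 CPM in Flp-In siMePCE, against 37.95 and 37.2 CPM in Flp-In siNC. HARS2 had 13.6 and 13.2 CPM in AsiSI siMePCE, against 11.9 and 11.5 CPM in AsiSI siNC, and 18.7 and 15.7 CPM in Flp-In siMePCE, against 14.1 and 13.5 CPM in Flp-In siNC. In both lines HARS1 was lower and HARS2 higher in each siMePCE library than in each siNC library. Averaged over the lines, HARS1 fell (log2 fold change -0.24, adjusted p by edgeR = 0.0082) and HARS2 rose (0.26, adjusted p = 0.0274), the 1 pair with opposite calls in that average. The call of HARS1 was lost with TMM from coding rows (-0.11), and that of HARS2 without a filter on low counts and without any 1 library other than replicate 2 of each siMePCE group (0.18 to 0.26). In the deposited table the 2 rows share 108 bases. ZMAT2, on the same strand as HARS2, held 3.094 times its counts, and WDR55 held 0.993 times those of HARS1. Mean CPM of WDR55 was lower after siMePCE, as for HARS1, at 21.96 against 41.5 in AsiSI and 27.3 against 39.98 in Flp-In. That of ZMAT2 was lower too, opposite to HARS2, at 38.6 against 48.8 in AsiSI and 40.9 against 44.95 in Flp-In. Whether the HARS1 calls and the opposite pair rest on WDR55 reads was not tested.

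Mitochondrial synthetases charge tRNAs that the mitochondrial genome encodes, and most of those tRNA rows rose in both lines. Of the 15 mitochondrial synthetases, 2 rose and 9 fell in AsiSI, and 2 rose and 5 fell in Flp-In. Coding genes were 16.9% higher and 35% lower in AsiSI, and 20.4% higher and 34.2% lower in Flp-In. The 5 that fell in Flp-In thus lie near the share of coding genes. Of 22 mitochondrial tRNA rows, 19 rose and 0 fell in AsiSI (median log2 fold change 0.82), and 21 rose and 0 fell in Flp-In (median 0.99), and 0 fell at an unadjusted p under 0.05 in either line. Copies of mitochondrial sequence in the nuclear genome can share reads with these rows. Of the 13 mitochondrial protein-coding rows, 12 rose and 1 fell in AsiSI, and 9 rose and 1 fell in Flp-In, while the 2 mitochondrial ribosomal RNA rows were called in neither line (median log2 fold change 0.24 in AsiSI and -0.24 in Flp-In). The mitochondrial share of counts given above was higher in the siMePCE libraries too, and what part it had in the tRNA result was not tested. MT-TE, the tRNA for glutamate charged by EARS2, had 96.0 and 105 CPM in AsiSI siMePCE, against 21.8 and 21.5 CPM in AsiSI siNC, and 107 and 94.6 CPM in Flp-In siMePCE, against 21.6 and 24.3 CPM in Flp-In siNC. The siMePCE libraries lay far above the siNC libraries, and MT-TE rose 4.64-fold in AsiSI (SE 0.103 on the log2 scale, adjusted p by edgeR = 2.31e-12) and 4.39-fold in Flp-In (SE 0.103, adjusted p = 3.46e-12). Its sequence (GENCODE 29, GRCh38) is shown because this row had the highest log2 fold change of the 22 in both lines, with the anticodon at bases 31 to 33 in capitals.
MT-TE: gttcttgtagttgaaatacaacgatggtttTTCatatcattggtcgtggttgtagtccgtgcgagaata
MT-TD, the tRNA for aspartate, was called in neither line (0.07 in AsiSI and -0.02 in Flp-In), and MT-TF and MT-TV were not called in AsiSI. These rows are 59 to 75 bases long and appear to have been counted without regard to strand, so mature tRNA and precursor transcripts cannot be told apart.

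**Figure D4:**
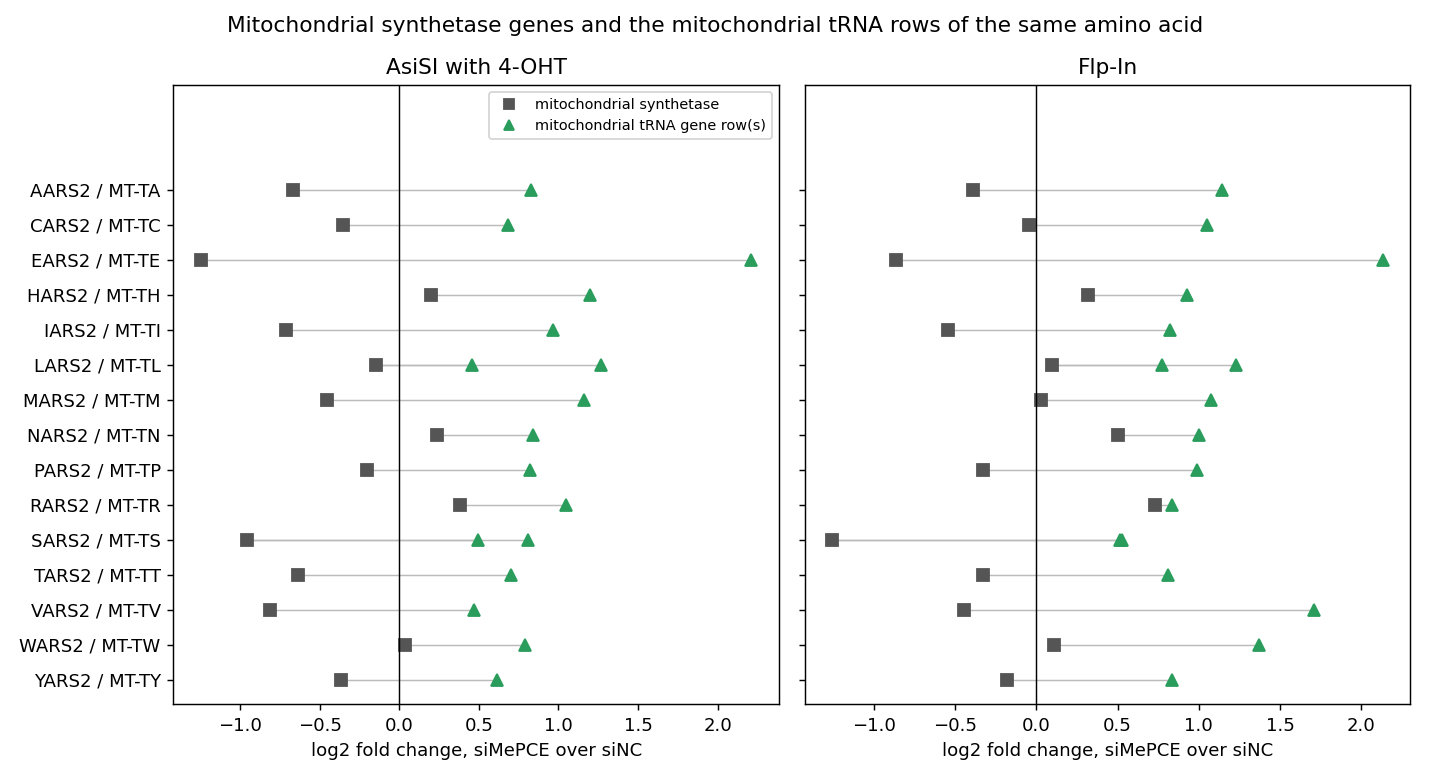
Log2 fold change after siMePCE relative to siNC (x axis) for the 15 mitochondrial synthetase genes (squares) and the mitochondrial tRNA rows of the same amino acid (triangles, 2 rows for leucine and for serine), AsiSI at left and Flp-In at right. Every triangle lies to the right of its square, and the gap is widest for EARS2 and MT-TE.

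Under the control siRNA, AsiSI cells given 4-OHT had higher levels than Flp-In cells for more synthetase genes than the reverse. Of the members, 14 were higher and 3 lower in AsiSI siNC (10 and 2 cytosolic, 4 and 1 mitochondrial), beside 29.5% of all genes called, 14.4% higher and 15.1% lower, and 17.7% higher and 23.3% lower among coding genes. The median log2 difference was 0.35 over cytosolic and 0.04 over mitochondrial genes, and -0.04 over coding genes with at least 5 CPM. VARS2 had 24.3 and 26.2 CPM in AsiSI siNC, against 15.3 and 16.4 CPM in Flp-In siNC (log2 0.67, adjusted p by edgeR = 0.000263). AARS2 had 21.7 and 23.9 CPM in AsiSI siNC, against 14.3 and 14.5 CPM in Flp-In siNC (0.66, adjusted p = 0.000438). GARS1, the shared glycyl-tRNA synthetase, had 298 and 308 CPM in AsiSI siNC, against 195 and 192 CPM in Flp-In siNC (0.65, adjusted p = 1.97e-06). In each of the 3, both AsiSI libraries were above both Flp-In libraries. The other higher members were SARS2, FARSB, VARS1, SARS1, WARS1, TARS1, MARS1, CARS1, LARS1, YARS1 and NARS2, at log2 differences of 0.34 to 0.56 in 10 of them and 0.62 in FARSB. The SARS2 call was lost without any 1 of the 4 libraries compared (0.49 to 0.67), and those of CARS1 (0.35) and NARS2 (0.31) without replicate 1 of Flp-In siNC.

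The 3 lower members were QARS1, YARS2 and KARS1. QARS1 had 78.6 and 82.2 CPM in AsiSI siNC, against 102 and 104 CPM in Flp-In siNC (log2 -0.36, adjusted p by edgeR = 0.00472). YARS2, mitochondrial tyrosyl-tRNA synthetase, had 125 and 118 CPM in AsiSI siNC, against 150.4 and 151 CPM in Flp-In siNC (-0.32, adjusted p = 0.00739). KARS1, lysyl-tRNA synthetase, had 159 and 162 CPM in AsiSI siNC, against 187 and 196 CPM in Flp-In siNC (-0.26, adjusted p = 0.0172). The groups did not overlap, but the KARS1 call was lost without any 1 of the 4 libraries compared (-0.26 to -0.19), the YARS2 call without either Flp-In siNC library or replicate 2 of AsiSI siNC (-0.30 to -0.26), and the QARS1 call without replicate 2 of Flp-In siNC (-0.31). Without that library 0 members were lower. For tyrosine the pair went opposite ways, YARS1 higher (0.35, adjusted p = 0.00548) and YARS2 lower. DNM1L, on the opposite strand, covered 63.93% of YARS2 and held 1.312 times its counts. It was lower in AsiSI siNC too, at 160 and 146 CPM, against 205 and 193 CPM in Flp-In siNC. Reads in that stretch cannot be assigned to either row. Whether the YARS2 call and the opposite pair rest on DNM1L reads was not tested. The YARS1 call was lost without replicate 1 of Flp-In siNC (0.32). These values share the AsiSI siNC and Flp-In siNC libraries with the knockdown comparisons, so the orders of genes in them are not set against each other.

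Length and base composition of the genes were looked at as features that the choice of members did not use. Averaged over the lines, the log2 fold change across the 34 members had a Spearman rho of 0.41 and a Pearson r of 0.33 with the gene span, and -0.52 and -0.60 with the GC content of the longest annotated transcript. Across 12108 coding genes with at least 5 CPM these were 0.26 and 0.27, and -0.38 and -0.39, of the same sign as across the members. All these values are from the same 8 libraries and genes are not independent replicates. Of the 10 members with a span under 20000 bases, 0 rose and 8 fell in AsiSI, and 0 rose and 6 fell in Flp-In (at an unadjusted p under 0.05, 0 rose in AsiSI and 1, HARS2, in Flp-In), and of coding genes of that span with at least 5 CPM 10.32% rose and 55.77% fell in AsiSI, and 15.2% rose and 50.35% fell in Flp-In. Of the 24 longer members, 3 rose and 12 fell in AsiSI and 7 rose and 3 fell in Flp-In, beside 19.45% higher and 39.26% lower in AsiSI, and 25.7% higher and 35.74% lower in Flp-In, among coding genes of that span.

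**Figure D5:**
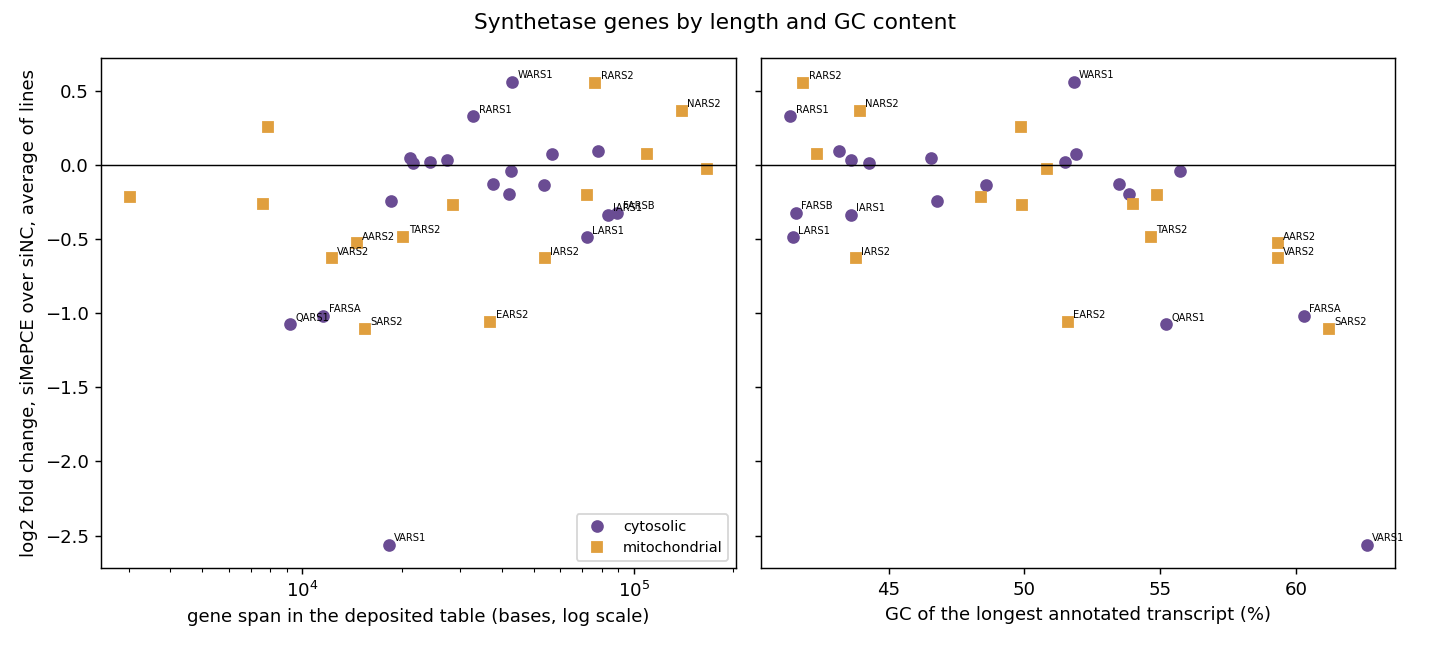
Log2 fold change after siMePCE relative to siNC, averaged over the lines (y axis), by gene span (left, log scale) and GC content of the longest transcript (right) for 34 synthetase genes. Genes at an absolute log2 fold change of 0.3 or more are named, and VARS1 lies lowest and has the highest GC content.

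Of the 34 rows, 27 overlapped another row. An overlapping row with at least 0.5 times the counts was found for 2 cytosolic (HARS1 and WARS1) and 9 mitochondrial genes. The 9 were AARS2, EARS2, HARS2, MARS2, SARS2, TARS2, VARS2, WARS2 and YARS2. Among the 13 members with a ratio under 0.1 to any overlapping row, the 10 cytosolic genes had 0 higher (1, RARS1, at an unadjusted p under 0.05) and 5 lower in AsiSI, and 3 higher and 3 lower in Flp-In. The 3 mitochondrial genes of this kind (IARS2, PARS2 and RARS2) had 1 higher and 1 lower in each line. Coding genes were 16.9% higher and 35% lower in AsiSI, and 20.4% higher and 34.2% lower in Flp-In.

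Partners of the synthetases gave mixed directions, beside 16.9% of coding genes higher and 35% lower in AsiSI, and 20.4% higher and 34.2% lower in Flp-In. Of 8 scaffold and elongation genes, 2 rose and 3 fell in AsiSI and 4 rose and 2 fell in Flp-In. EEF1A1, the factor that brings charged tRNA to the ribosome, rose in both lines by 0.33 and 0.93 on the log2 scale, with a difference of -0.60 (adjusted p by edgeR = 0.00164), and EEF1G, a subunit of its exchange factor, rose by 0.33 and 0.56. EEF1A1 has many processed copies in the genome, so its counts are uncertain. AIMP2, a scaffold of the multi-synthetase complex, fell by 0.76 and 0.44, and EEF2, the translocation factor, by 0.50 and 0.25. Of 33 genes for tRNA transcription and maturation, 2 rose and 17 fell in AsiSI and 9 rose and 9 fell in Flp-In. By the test of the difference, 6 had a lower effect in AsiSI and 0 a higher one, beside 3.11% of coding genes lower and 3.1% higher. GTF3C1, of the TFIIIC complex, fell by 0.56 and 0.39, while SSB, the La protein that binds polymerase III transcripts, rose by 0.64 and 0.91.

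Of 7 genes for proofreading and peptidyl-tRNA release, 0 rose and 6 fell in AsiSI and 0 rose and 4 fell in Flp-In, and at an unadjusted p under 0.05 there were 7 and 5 lower and 0 higher. Among coding genes the called shares were 16.9% higher and 35% lower in AsiSI, and 20.4% higher and 34.2% lower in Flp-In, and no more is read from a list of 7 genes. PTRH2, which releases peptides from tRNA, fell by 0.53 in AsiSI and by 0.30 in Flp-In, and DTD1 and DTD2, which clear tRNA of wrongly attached amino acids, by 0.58 and 0.76 in AsiSI and by 0.34 and 0.51 in Flp-In. Of 21 mitochondrial tRNA and translation partners, 2 rose and 10 fell in AsiSI and 5 rose and 5 fell in Flp-In. TRMU, a tRNA-modifying enzyme, TUFM, the mitochondrial elongation factor, and GATC, of the complex that makes mitochondrial glutaminyl-tRNA, fell by 0.95, 0.80 and 0.56 in AsiSI and by 0.52, 0.67 and 0.35 in Flp-In, and TRMT10C, of mitochondrial RNase P, rose by 0.64 and 0.52. Of 9 genes around ATF4 control, 2 rose and 4 fell in AsiSI and 3 rose and 4 fell in Flp-In. GCN1 and the kinases EIF2AK1, EIF2AK2 and EIF2AK4 (GCN2, which senses uncharged tRNA) were the 4 that fell, EIF2AK4 by 1.08 in AsiSI and 0.78 in Flp-In.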

How the data were processed

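Total RNA was sequenced in 8 libraries, 2 for each of 4 groups. Per the labels' protocols, a directional kit was used after ribosomal RNA removal. Per the submitters' processing notes, the tools were featureCounts, SAMtools, STAR, FastQC and Trim Galore (no versions) and the build was hg19. The authors deposited raw counts per gene, and the listed length of all 80311 rows equals end minus start plus 1, so introns were counted. In 3449 of 3449 same-strand and 6860 of 6860 opposite-strand nested pairs with mean counts of at least 20, the outer row was at least as high in all libraries. Reads thus appear to be counted for every overlapping row on either strand. That setting is not given in the sources used here, and overlapping and antisense genes cannot be told apart.

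Genes passing filterByExpr (43321) were normalized with TMM, and edgeR 4.0.16 (R 4.3.3, limma 3.58.1) fitted a quasi-likelihood model with a mean for each of the 4 groups to all 8 libraries. The common biological coefficient of variation was 0.121. The siMePCE libraries were compared with siNC within AsiSI and within Flp-In, and the effects were averaged and subtracted (Flp-In from AsiSI). AsiSI siNC was also compared with Flp-In siNC. SE is that of the log2 fold change, taken as its absolute value divided by the square root of the edgeR F statistic. All 8 columns were used. Replicates differed beyond counting noise (chi-square per degree of freedom 4.51 to 11.3). The scripts were tested on simulated data. The members, lists and motifs were chosen with earlier results of these data known.

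Values per library are given for the 4 members with the highest and the 4 with the lowest called log2 fold change in each knockdown contrast, those called for the difference, pairs of 1 amino acid with opposite calls, and the 3 highest and 3 lowest called between lines under siNC. IARS2 and LARS1 are given per library beyond this rule, chosen after their values were seen. From each other list, up to 4 called genes by adjusted p in the average are named, and ATF4, ASNS, MYC and MEPCE. Some genes of these lists are not reported here. Alternatives were DESeq2 size factors and DESeq2 1.42.0, TMM from coding rows, a table without ribosomal RNA, RN7SL, RN7SK and mitochondrial rows, other count filters, a replicate block, fits on 4 libraries, and leaving out each library. A robust dispersion and members with low overlap were added after seeing the data. Sequences are from RefSeq (GRCh38.p14) and GENCODE 29. The planned comparison of protein sequences was not run.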

Additional observations from a re-analysis of the deposited data

Results flagged for a closer look

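For 3 synthetase genes the effect of siMePCE in AsiSI minus that in Flp-In was itself past the test's threshold: AARS1 at -0.59, IARS1 at -0.59 and YARS1 at -0.53 on the log2 scale. Over the 16 other settings the difference ran from -0.72 to -0.47 for AARS1 (edgeR or DESeq2 adjusted p 0.0012 to 0.0963), from -0.65 to -0.54 for IARS1 (adjusted p 7.74e-06 to 0.0156) and from -0.61 to -0.46 for YARS1 (adjusted p 0.00545 to 0.165). Cell line and 4-OHT treatment cannot be told apart here.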

How the results depend on the processing

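Over 17 other settings, 56 of the 81 calls of a member in a contrast held in every one. Members called higher in Flp-In were 7, and 11 with DESeq2 size factors, DESeq2 or the replicate block, 13 with TMM from coding rows, at least 10 counts in every library or only the 4 libraries compared, and 4 to 7 when leaving out one library. Members called higher in AsiSI were 3 and in the average 5, and with TMM from coding rows 5 and 12. Members called lower for the difference were 3, and 9 with at least 10 counts, 7 with DESeq2, 11 with the replicate block, 5 with a robust dispersion (added after seeing the data), and 1 to 5 when leaving out one library. Lower members between lines under siNC were 3, and 0 to 4 when leaving out one library. The cytosolic minus mitochondrial median, 0.06 in AsiSI and 0.32 between lines, ran from -0.068 to 0.20 and from 0.22 to 0.39 when leaving out one library. TMM from coding rows shifted the median of all genes by 0.131 in the average.

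Sign changes among the printed values were all in uncalled results. With TMM from coding rows, HARS1 and IARS1 in Flp-In were at 0.024 and 0.068, and EPRS1 and KARS1 in AsiSI at 0.073 and 0.073. Under the same scaling CARS2 in Flp-In was at 0.058, and in AsiSI CARS1 was at 0.021, NARS1 at 0.023, SARS1 at 0.0033, TARS1 at 0.0013 and LARS2 at 0.0068. With at least 10 counts IARS1 and CARS2 in Flp-In were at 0.033 and 0.024, and with no filter GARS1 and MARS1 in Flp-In at -0.022 and -0.022. Leaving out one library gave -0.041 to 0.032 for GARS1 and -0.10 to 0.0060 for IARS1 in Flp-In, -0.12 to 0.10 for MARS1, -0.15 to 0.039 for CARS2 and -0.13 to 0.15 for MARS2 in Flp-In, -0.097 to 0.14 for WARS2 in AsiSI, -0.25 to 0.014 for HARS2 and -0.16 to 0.65 for SARS2 in the difference, and -0.054 to 0.17 for FARSA and -0.0069 to 0.097 for EARS2 between lines. The cause was not tested. The 34 uncalled results whose log2 values are not printed (in the average, the difference and between lines) had 26 sign changes and 40 calls gained over 552 values.

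Deviations of same-numbered libraries correlated at -0.10 to 0.34 over 16950 genes, over 0.1 in 3 of 6 pairs of groups, and since not every pair was over 0.1 the numbers were not taken as pairs. Replicates differed by more than counting noise at these depths.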
